A study of Sus scrofa with 8 samples.

Results

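The cardiac gene programme is run by a small set of transcription factors, and 10 of their genes were followed in the pig heart: GATA4, GATA6, TBX5, TBX20, MEF2A, MEF2C, MEF2D, HAND1, HAND2 and SRF. Rows were taken by gene name, which gave 11 of the 18975 genes listed, because MEF2A is listed at 2 loci. The second MEF2A locus (ENSSSCG00000004815, on the unplaced scaffold GL894544.2) stood between 0 and 0.1 FPKM in every library and was below the filter on low values. The other 10 rows were among the 11913 genes tested. How reads were divided between the 2 MEF2A loci is uncertain.

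Hearts were taken for RNA-seq from 2 breeds, Tibetan and Yorkshire, each raised in the highland (TH and YH) and in the lowland (TL and YL). All animals were male and 6 months old, no treatment other than the place of rearing is named, and the chamber sampled is not given in the labels. Each group had 2 libraries, and each library held RNA pooled from 4 pigs, so the spread is that between pools and not between animals. Place of rearing was also the place of sampling, so altitude cannot be told apart from anything else that differed between the sites.

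These factors act together on heart muscle genes. GATA4 and GATA6 are zinc finger proteins, TBX5 and TBX20 bind DNA through a T-box, HAND1 and HAND2 are basic helix-loop-helix proteins, and the MEF2 proteins and SRF share the MADS domain. GATA4, TBX5 and NKX2-5 bind many of the same cardiac enhancers, and SRF with its coactivators drives sarcomere, cytoskeleton and immediate early genes. In the embryo they build the chambers, and in the adult heart they maintain the contractile programme and take part in hypertrophic growth.

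Between 15687000 and 26723000 reads fell on genes per library (median 19648000), and YL2 stood apart from the other libraries. Its correlation with them over the tested genes (log2 FPKM + 1) ranged from 0.839 to 0.870, whereas TL1 and TL2 correlated at 0.972. Of 10 kidney marker names 8 were found in the table, and their summed FPKM was 4414 in YL2 against 0.0855 to 17 in the other 7 libraries, with UMOD, a defining gene of the kidney tubule, at 947 FPKM in YL2 and 0 in 6 of the other 7. Of 8 cardiomyocyte marker names 6 were found (MYH7 and MYL2 were not matched by symbol), and their summed FPKM was 9227 in YL2 and 13979 to 27530 elsewhere, so heart muscle transcripts were abundant in every library. The 6 atrial markers summed to 5391 and 6620 FPKM in TH and to 406 to 2615 in the other groups. MYL7 (4283 and 3207 FPKM) and NPPA (2263 and 2146 FPKM) made up most of the sum in TH. Without overlap, 5 of the 6 atrial markers were higher and 0 lower in TH vs. YH (25.2 and 27.3% of all tested genes). In TH vs. TL, 3 were higher and 1 lower (24.0 and 24.5%). In such bulk tissue, fewer cells of a type and less RNA per cell cannot be told apart.

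Levels are in FPKM, fragments scaled by transcript length and by the total mapped, which allows genes to be compared per length. HAND2 was the most abundant factor and TBX20 the least. The mean over the 8 libraries was 97.7 ± 37.9 FPKM (SD, n = 8) for HAND2 and 60.1 ± 19.1 for GATA6. It was 31.4 ± 8.93 for MEF2D, 30.6 ± 11 for SRF and 22.7 ± 6.95 for GATA4, while MEF2A had 18.5 ± 5.61. The 4 lowest were MEF2C at 12.1 ± 3.69, TBX5 at 11.7 ± 4.07, HAND1 at 11.2 ± 2.75 and TBX20 at 5.16 ± 3.04. HAND2 exceeded GATA6 and GATA6 exceeded MEF2D in 8 of 8 libraries, and HAND1 exceeded TBX20 in 8 of 8. The order of the neighbours in between was not fixed: MEF2D exceeded SRF in 3 of 8 libraries, SRF exceeded GATA4 in 5, GATA4 exceeded MEF2A in 5, MEF2C exceeded TBX5 in 3 and TBX5 exceeded HAND1 in 4. MEF2A exceeded MEF2C in 7. Among all tested genes, the median level of HAND2 was at the 94.5th percentile and that of TBX20 at the 50.4th.

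**Figure D1:**
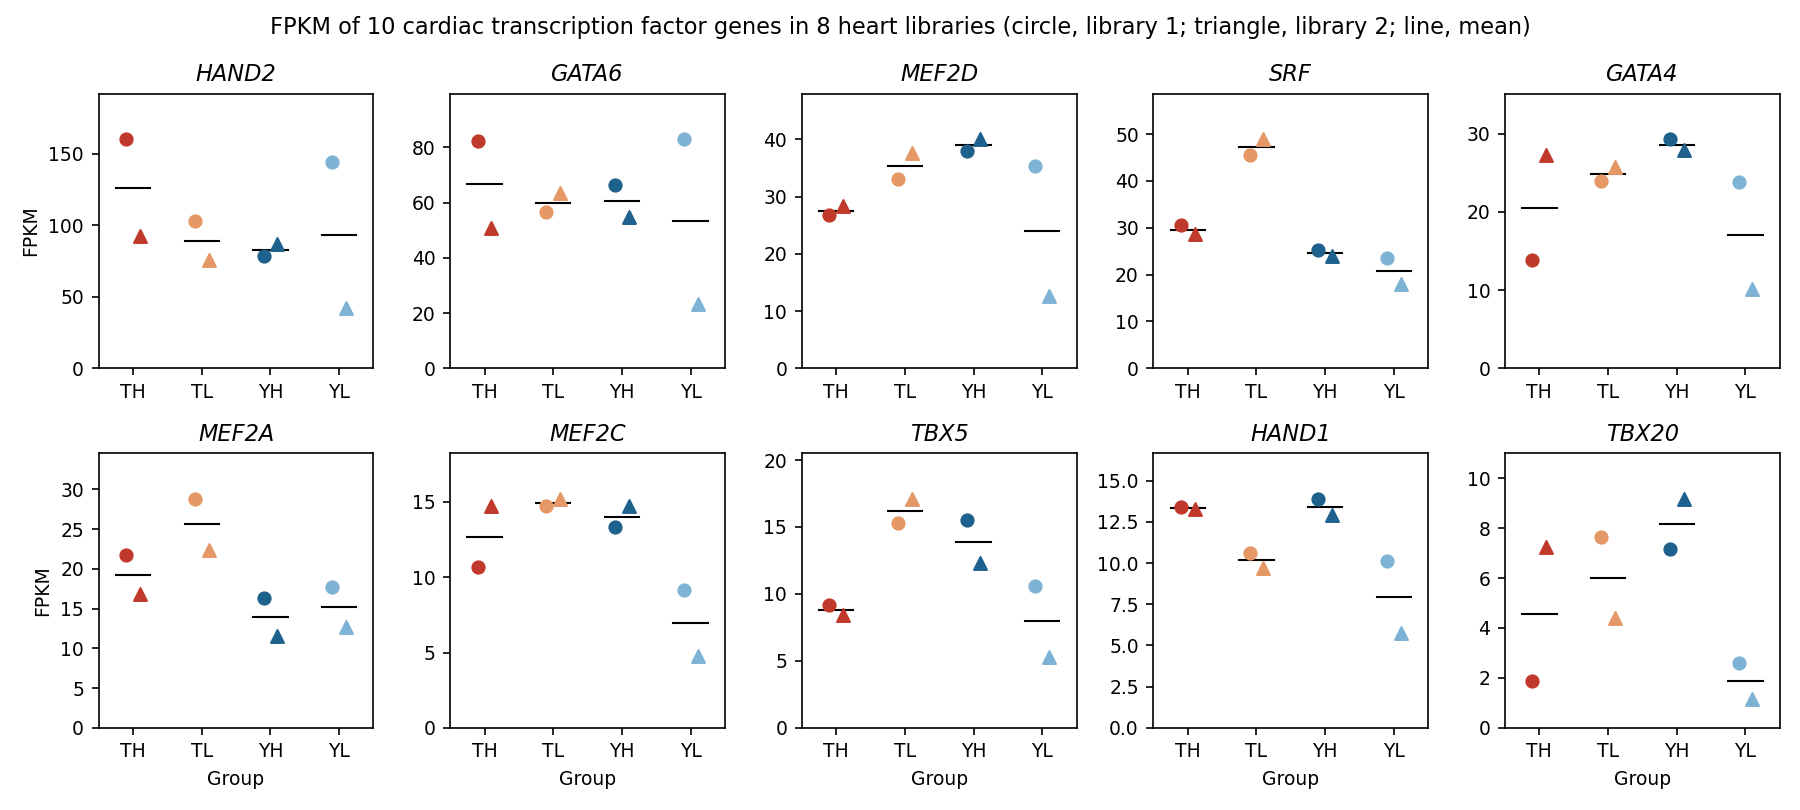
FPKM (vertical axes, linear and starting at 0, a separate scale per gene) of the 10 factors in TH, TL, YH and YL; circles are library 1, triangles library 2 and lines the mean of 2. SRF stands highest in both TL libraries (45.5 and 48.9 FPKM), while YL2 is the lowest library for every factor except MEF2A.

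GATA4, which is required for heart muscle differentiation and for the growth response of adult cardiomyocytes, lies on chromosome 14 (chr14:16073217-16124413 of Sscrofa10.2, ENSSSCG00000022383). TH1 and TH2 read 13.8 and 27.3 FPKM, TL1 and TL2 23.9 and 25.7, YH1 and YH2 29.3 and 27.9, and YL1 and YL2 23.8 and 10.2. Both YH libraries were above the other 6, as they were for MEF2D and for 6.90% of all tested genes, and the low values were TH1 and YL2, 1 library each of 2 groups. GATA6, its close relative, lies at chr6:99760292-99790611 (ENSSSCG00000003702) and had 82.4 and 50.7 FPKM (TH), 56.4 and 63.6 (TL), 66.4 and 54.8 (YH), and 82.9 and 23.4 (YL). Its highest and lowest libraries were therefore the pair of YL. GATA6 overlapped in all 4 comparisons, with log2 fold changes between 0.10 and 0.44 (SE 0.56 each). The ratio of GATA6 to GATA4 was 1.86 to 2.47 in 6 libraries, 3.48 in YL1 and 5.96 in TH1.

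TBX5, the T-box factor of the left heart and the conduction system, lies at chr14:40211209-40259321 (ENSSSCG00000009867). The TH pair had 9.14 and 8.39 FPKM, the TL pair 15.3 and 17.1, the YH pair 15.5 and 12.3 and the YL pair 10.6 and 5.31. The libraries of TL and YH were all above those of TH and YL. TBX20, which is needed in the adult heart to maintain contraction, lies at chr18:42467103-42508140 (ENSSSCG00000016662) and read 1.89 and 7.26 FPKM (TH), 7.63 and 4.39 (TL), 7.18 and 9.17 (YH), and 2.58 and 1.17 (YL). It varied most, with the highest library 7.86 times the lowest, or 4.84 times without YL2. TH1 was low beside YL1 and YL2, so 1 library of TH lay with YL and the other with YH.

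MEF2A, the MEF2 protein tied to mitochondrial and structural genes of adult muscle, lies at chr1:154648092-154692276 (ENSSSCG00000028771) and had 21.7 and 16.8 FPKM (TH), 28.8 and 22.4 (TL), 16.3 and 11.6 (YH), and 17.7 and 12.7 (YL). Both TL libraries were above the other 6, as they were for SRF and for 4.91% of all tested genes. MEF2C, the family member that acts first in the embryonic heart and is also expressed in endothelium, lies at chr2:98794387-98885272 (ENSSSCG00000014149). The TH pair had 10.7 and 14.7 FPKM, the TL pair 14.7 and 15.2, the YH pair 13.3 and 14.7 and the YL pair 9.16 and 4.79, so both YL libraries were below the other 6, as for SRF and for 4.93% of all tested genes. MEF2D, which takes part in stress-induced remodelling, lies at chr4:102218093-102236181 (ENSSSCG00000006482) with 26.8 and 28.3 FPKM (TH), 33.0 and 37.6 (TL), 37.9 and 40.0 (YH), and 35.4 and 12.6 (YL). MEF2D made up 41.8 to 60.3% of the summed FPKM of the 3 MEF2 genes. Its share was 56.2, 60.3 and 56.8% in YH1, YH2 and YL1, 41.8% in YL2 and 43.2 to 50.0% in the 4 Tibetan libraries.

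SRF, serum response factor, lies at chr7:43714053-43724057 (ENSSSCG00000001661). It read 30.5 and 28.6 FPKM (TH), 45.5 and 48.9 (TL), 25.2 and 24.0 (YH), and 23.6 and 18.1 (YL). The 4 groups did not overlap, in the order TL, TH, YH and YL, and within each group the 2 libraries differed by at most 0.36 on the log2 scale, less than any other factor differed in YL. The last step was narrow, with a log2 fold change of 0.24 ± 0.21 (SE) for YH vs. YL, or 0.06 without YL2. That of TH vs. YH, 0.25 ± 0.21, turned to -0.62 when each library was divided by its FPKM sum. How many of all genes showed such an order was not counted. The ratio of SRF to MEF2D was 1.38 and 1.30 in TL, 1.14 and 1.01 in TH, 0.665 and 0.601 in YH, and 0.666 in YL1 but 1.44 in YL2.

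HAND1, the left ventricular member of the HAND pair in the embryo, lies at chr16:74589673-74591889 (ENSSSCG00000017070), with 13.4 and 13.3 FPKM (TH), 10.6 and 9.73 (TL), 13.9 and 12.9 (YH), and 10.1 and 5.74 (YL). Its highland libraries were all above the lowland ones in both breeds. HAND2, the right ventricular member, lies at chr14:17528446-17531529 (ENSSSCG00000009703) and had 160 and 92.3 FPKM (TH), 103 and 75.4 (TL), 78.7 and 86.6 (YH), and 144 and 42.4 (YL). HAND2 overlapped between groups in every comparison but TH vs. YH. The ratio of HAND2 to HAND1 ran from 5.67 in YH1 to 14.2 in YL1, with 11.9 in TH1.

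**Figure D2:**
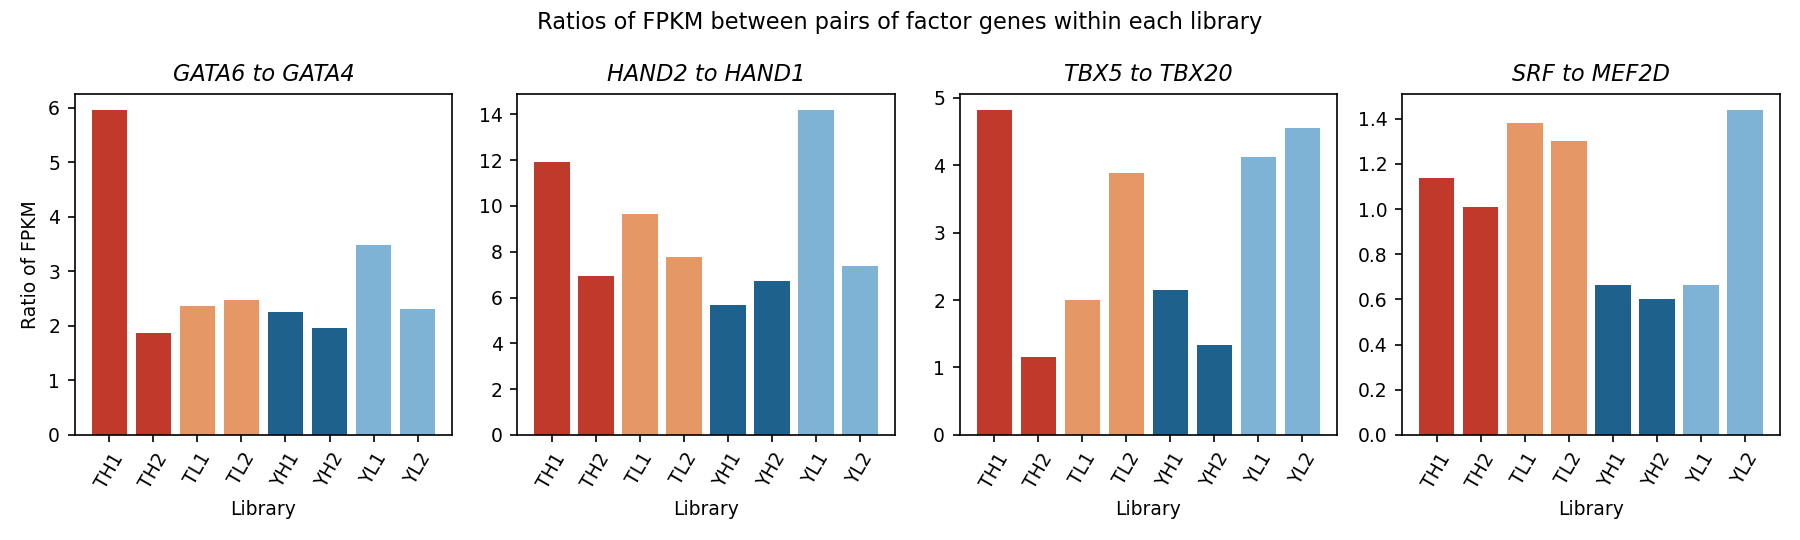
Ratio of FPKM (vertical axis, from 0) between pairs of factors in each of the 8 libraries (bars, coloured by group). TH1 has the highest GATA6 to GATA4 ratio (5.96), YL1 the highest HAND2 to HAND1 ratio (14.2), and SRF to MEF2D is above 1 in the Tibetan libraries and in YL2.

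For some factors, picked for this likeness, TH1 and YL1 lay at the same end of the range. They held the 2 highest values of GATA6 and of HAND2, and, leaving out YL2, the 2 lowest values of TBX20 and of MEF2C. The same held narrowly for GATA4, with 13.8 FPKM in TH1 and 23.8 in YL1, beside 23.9 in TL1. SRF, with 30.5 FPKM in TH1 and 23.6 in YL1, MEF2D, with 26.8 and 35.4, and HAND1, with 13.4 and 10.1, did not show it. Over all tested genes TH1 correlated best with TH2 (0.943). The same libraries had the largest sums of FPKM over all genes (8559104 and 4017846, against 1563940 to 3444727 in the others). They had 2 of the 3 highest summed cardiomyocyte marker levels (27530 and 21611 FPKM, with 21527 in TL2). TH1 also had the lowest summed fibroblast marker level of the 8, at 175 FPKM against 222 to 775. The part of these differences in the levels of the factors was not tested.

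Breed at altitude was compared first, as TH vs. YH. In this comparison 3 factors were higher in both TH libraries than in both YH libraries (MEF2A, HAND2 and SRF, against 25.2% of all tested genes), and 3 were lower (GATA4, TBX5 and MEF2D, against 27.3%). With log2(FPKM + 1) fitted in limma over all 8 libraries, the log2 fold change was 0.55 ± 0.56 (SE) for HAND2, 0.45 ± 0.28 for MEF2A and 0.25 ± 0.21 for SRF, and it was -0.60 ± 0.31 for TBX5, -0.53 ± 0.44 for GATA4 and -0.48 ± 0.43 for MEF2D. The 3 positive values turned when each library was divided by its FPKM sum, to -0.42, -0.40 and -0.62, where the median of all genes stood at -0.50. TBX20 had -0.90 ± 0.53 with overlapping groups, which became -0.14 without TH1 and -1.66 without TH2. The values of GATA4 and HAND2 rested on TH1 too, since GATA4 stood at -0.07 and HAND2 at 0.16 without it, and at -1.0 and 0.94 without TH2. A call needed both an adjusted p under 0.01 and a change of more than 1 on the log2 scale. By that rule limma called 0 of the 10 factors (0.0336% of all genes). On FPKM 0 reached an unadjusted p under 0.05 (16.2% of all genes). The same count was 0 on the scaled reads (15.1%) and 0 with each library centred on its cardiomyocyte markers (6.07%). Without YL2 in the shared estimate of the spread, the count was 2 (TBX5 and MEF2D), against 22.7% of all genes. The lowest adjusted p from limma was 0.389, for TBX5. The median over the 10 factors was -0.07, beside -0.03 over all tested genes. The atrial markers given above had a median log2 fold change of 1.60 in TH vs. YH, and their part in these values was not tested.

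Breed at low altitude, TL vs. YL, gave positive log2 fold changes for all 10 factors, although for HAND2 (0.17 ± 0.56) the mean FPKM was lower in TL (89.0 against 93.0) and the sign turned without TL1 (-0.05), without YL2 (-0.70) and after division by the FPKM sum (-0.16). In 6, both TL libraries were above both YL libraries (GATA4, TBX5, TBX20, MEF2A, MEF2C and SRF, against 23.8% of all genes) and in 0 the reverse held (17.8%). SRF differed most beyond its spread: a mean of 47.2 FPKM in TL against 20.8 in YL, a log2 fold change of 1.15 ± 0.21 (SE) with a 95% interval of 0.66 to 1.65, an unadjusted p of 0.000961 and an adjusted p of 0.187 in limma. MEF2C (1.06 ± 0.31), TBX5 (1.0 ± 0.31), TBX20 (1.29 ± 0.53) and MEF2A (0.72 ± 0.28) were the other factors with an unadjusted p under 0.05, 5 of 10 in all against 8.94% of all genes (4 of 10 on the scaled reads, against 8.74%). Limma called 0 of 10 (0.00839% of all genes). The median of the 10 was 0.71, beside 0.02 over all genes.

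Much of that rested on YL2. Without it the median was 0.28, 7 factors were positive, and 2 kept an unadjusted p under 0.05 (9.72% of all genes): SRF at 0.97 ± 0.21 (adjusted p = 0.22 in limma) and MEF2C at 0.65 ± 0.25 (adjusted p = 0.489). GATA4 then stood at 0.06, MEF2D at -0.01, GATA6 at -0.46 and HAND2 at -0.70. Without YL1 instead, 10 of 10 passed an unadjusted p under 0.05, against 25.5% of all genes, and 4 (TBX5, MEF2C, MEF2D and SRF) an adjusted p under 0.05 in limma, against 9.29%. Of the 6 cardiomyocyte markers 5 overlapped between TL and YL, with a median log2 fold change of 0.45 and the largest, 1.80, for ACTC1. After each library was centred on the mean of these 6, SRF stood at 0.53 (adjusted p = 0.659 in limma), MEF2C at 0.43 and the median at 0.09, on a scale where the median of all genes was -0.61. On that scale 0 of 10 had an unadjusted p under 0.05 (5.77% of all genes). The 6 fibroblast markers were tested in 7 rows, 2 of them COL1A1. Of these rows, 6 were higher in TL without overlap (23.8% of all genes) and 4 had an unadjusted p under 0.05 (8.94%), with 0 called by limma and a median log2 fold change of 1.61. Without overlap, 3 of 4 blood markers (median 0.85) and 3 of 5 smooth muscle markers (median 0.89) were also higher. Of 5 liver marker rows, 1 was higher and 3 were lower (17.8% of all genes), with a median of -1.34. Their part in the values of the factors was not tested.

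**Figure D3:**
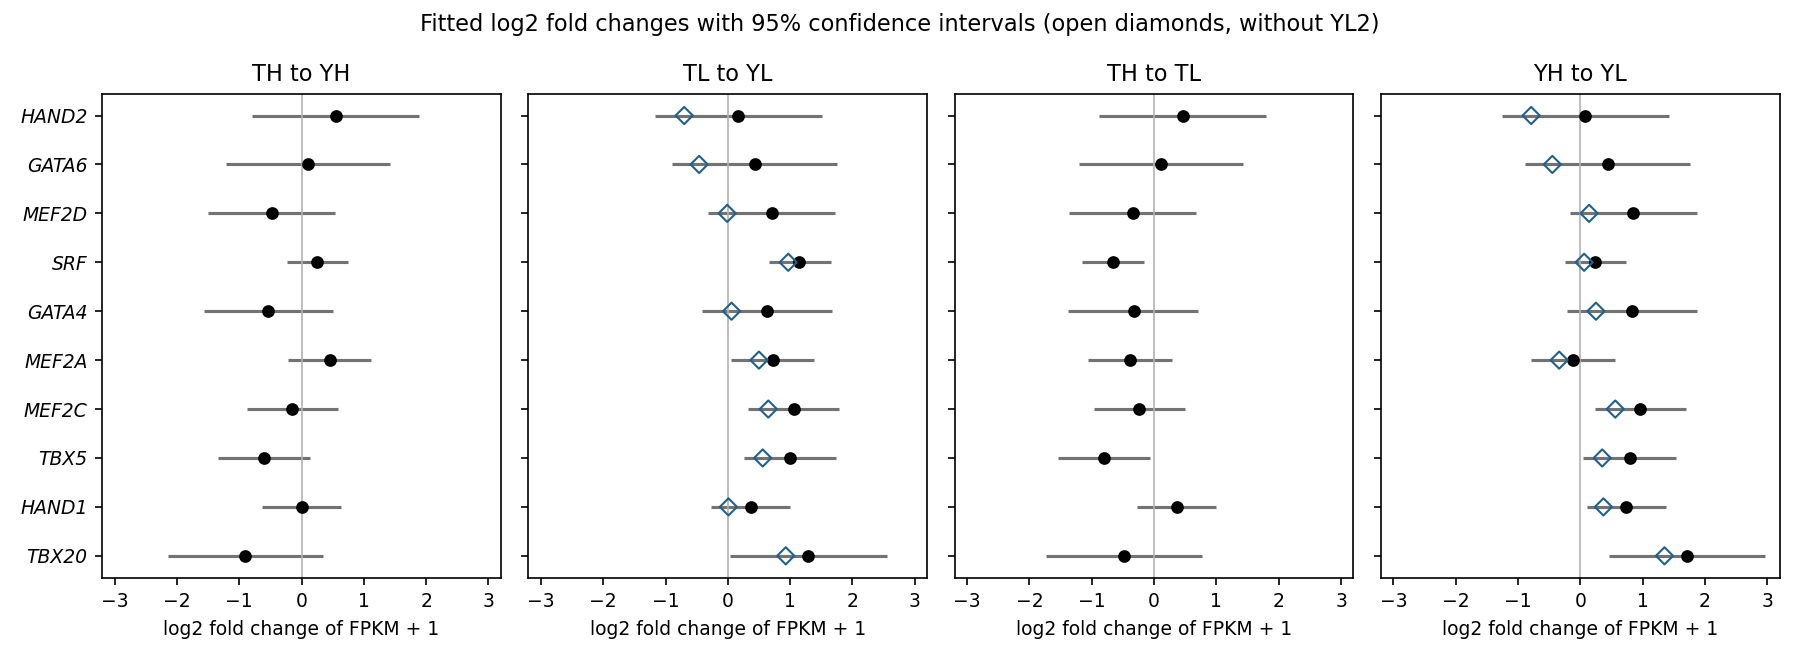
Log2 fold change of FPKM + 1 (horizontal axis) of the 10 factors, a panel for each of the 4 comparisons, positive where the first group is higher; points are limma estimates, lines 95% intervals and open diamonds the estimate without YL2. SRF in TL vs. YL (1.15, and 0.97 without YL2) is the estimate farthest from 0 for its interval.

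Altitude in Tibetan pigs was compared as TH vs. TL. Of the factors, 5 were lower in both TH libraries than in both TL libraries (TBX5, MEF2A, MEF2C, MEF2D and SRF, against 24.5% of all genes) and HAND1 was higher (24.0%). SRF had a log2 fold change of -0.66 ± 0.21 (SE) and TBX5 of -0.81 ± 0.31, with adjusted p of 0.316 and 0.396 in limma. They were the 2 factors with an unadjusted p under 0.05 (11.3% of all genes), and 1 of them, SRF, did so on the scaled reads (10.5% of all genes) and without TH1 (8.34%), while 0 did with the cardiomyocyte centring (4.14%). HAND1, with group means of 13.4 and 10.2 FPKM, gave 0.36 ± 0.27. Limma called 0 of 10 (0.0504% of all genes). The median was -0.34 over the factors and -0.02 over all genes. After division of each library by its FPKM sum, HAND1 turned to -0.14.

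Altitude in Yorkshire pigs, YH vs. YL, had 7 factors higher in both YH libraries (GATA4, TBX5, TBX20, MEF2C, MEF2D, HAND1 and SRF, against 21.9% of all genes) and 0 lower (14.4%). TBX20 gave the largest log2 fold change, 1.71 ± 0.53 (SE), from means of 8.18 and 1.87 FPKM. MEF2C had 0.96 ± 0.31, MEF2D 0.85 ± 0.43, GATA4 0.83 ± 0.44, TBX5 0.79 ± 0.31 and HAND1 0.73 ± 0.27. TBX20, MEF2C, TBX5 and HAND1 had an unadjusted p under 0.05 (4 of 10, 5.97% of all genes), against 3 on the scaled reads (6.08%), 0 with the cardiomyocyte centring (1.38%), 0 without YL2 (5.45%) and 8 without YL1 (25.3%). Their adjusted p in limma was 0.763 for TBX20, 0.764 for MEF2C, and 0.784 for both TBX5 and HAND1, and limma called 0 of 10 as it called 0 of all genes. Without YL1, 4 (TBX5, MEF2C, MEF2D and HAND1) had an adjusted p under 0.05 (8.46% of all genes). Without YL2, TBX20 stood at 1.35, MEF2C at 0.56, HAND1 at 0.37, TBX5 at 0.35, GATA4 at 0.25, MEF2D at 0.14 and SRF at 0.06, and the median of the 10 went from 0.76 to 0.19. Markers of other cell types were also higher in both YH libraries: 4 of 4 for endothelium (median 0.53), 4 of 4 for blood (median 0.87, 3 with an unadjusted p under 0.05) and 5 of 7 rows for fibroblasts (median 0.56), with 0 called by limma. COL1A1 has 2 of those 7 rows. Their part in the values of the factors was not tested.

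The 2 altitude comparisons pointed opposite ways, with no overlap, for TBX5, MEF2C, MEF2D and SRF (4 of 10, against 11.3% of all genes), and the 2 breed comparisons did so for GATA4 and TBX5 (9.90%). The difference between the altitude comparisons, TH minus TL less YH minus YL, was negative for 9 of 10, with a median of -1.03 (-0.01 over all genes), or for 8 of 10 with a median of -0.53 without YL2. TBX5 gave -1.60 ± 0.44 (SE, adjusted p = 0.337 in limma), TBX20 -2.19 ± 0.75 (adjusted p = 0.385), MEF2C -1.20 ± 0.43 (adjusted p = 0.4) and SRF -0.90 ± 0.30 (adjusted p = 0.371). These 4 had an unadjusted p under 0.05, against 10.9% of all genes (4 on the scaled reads too, against 10.4%), and limma called 0 (0.0336%). The count was 0 with the cardiomyocyte centring (3.19%), 3 without TH1 (8.01%), 8 without YL1 (24.9%, with TBX5, MEF2C and MEF2D at an adjusted p under 0.05, against 6.76%) and 4 without YL2 (12.8%), when HAND2 was among them and TBX20 was not. TBX5 was the factor for which TL and YH lay together above TH and YL.

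The 2 YL libraries differed for every factor, YL2 being the lower. Of the 10, 9 were lowest of all 8 libraries in YL2, as were 22.5% of all tested genes. The level in YL2 as a ratio to YL1 was 0.282 for GATA6, 0.295 for HAND2, 0.355 for MEF2D and 0.428 for GATA4. It was 0.719 for MEF2A and 0.768 for SRF, the highest of the 10. The ratio was 0.300 to 0.447 for 5 cardiomyocyte markers (TTN, TNNT2, RYR2, TNNI3 and ACTN2) and 1.07 for ACTC1. The part of the kidney and cardiomyocyte transcripts in these values was not tested. In TH, TH2 was 1.51 above TH1 on the log2 scale for TBX20 and 0.93 above it for GATA4, and it was 0.78 below it for HAND2, while the range in TL and YH was -0.68 to 0.31.

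**Figure D4:**
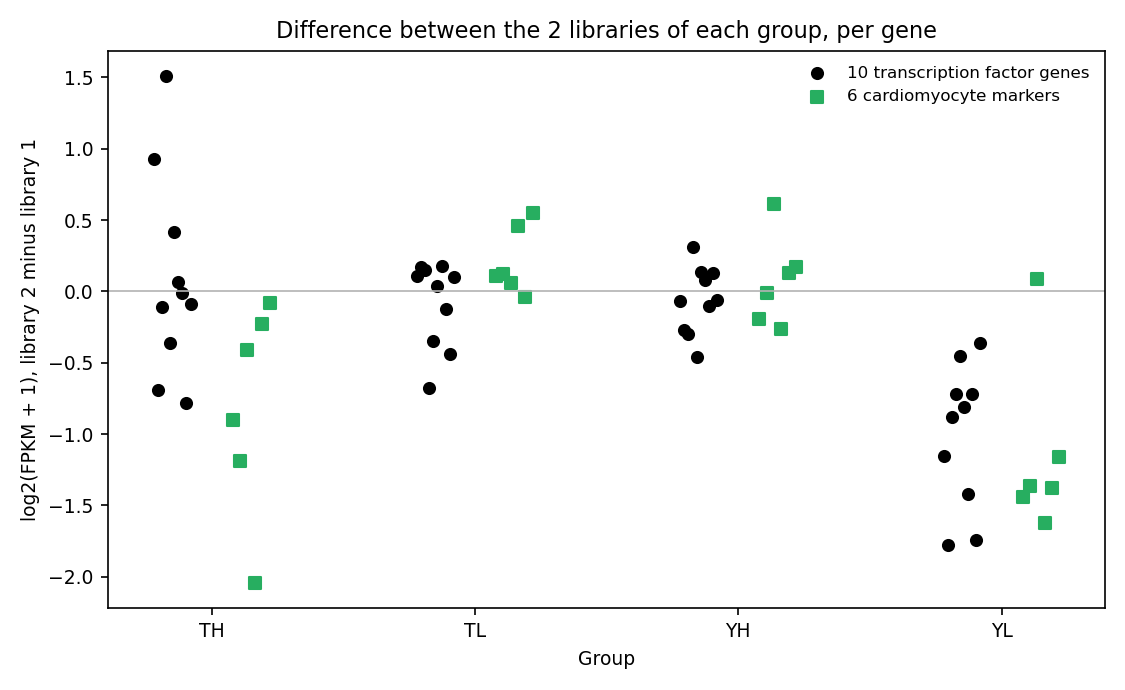
Difference in log2(FPKM + 1) between library 2 and library 1 (vertical axis) in each group for the 10 factors (black circles) and 6 cardiomyocyte markers (green squares). All 10 factors and 5 of the 6 markers lie below 0 in YL, while the factors lie between -0.68 and 0.31 in TL and YH and between -0.78 and 1.51 in TH.

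Partner factors were described from a list of 42 names, of which 35 were found and 32 genes were tested. In each of the 4 comparisons limma called 0 of the 32, and their median log2 fold change was 0.04 in TH vs. YH, 0.31 in TL vs. YL, -0.18 in TH vs. TL and 0.31 in YH vs. YL. An unadjusted p under 0.05 was reached by 3 in TH vs. YH, 5 in TL vs. YL, 5 in TH vs. TL and 1 in YH vs. YL, against 16.2, 8.94, 11.3 and 5.97% of all genes. NKX2-5, the homeodomain partner of GATA4 and TBX5, had 155 and 91.7 FPKM (TH), 94.2 and 77.0 (TL), 69.5 and 63.3 (YH), and 92.7 and 33.8 (YL), highest in TH1 and lowest in YL2 as was HAND2. FHL2, a LIM protein that binds SRF, read 155 and 125 FPKM in TL and 29.0 to 60.8 in the other 6 libraries. SMYD1, a muscle methyltransferase, was low in TH (7.10 and 17.1) and YL (18.8 and 13.6) and read 36.5 to 41.1 in TL and YH, the grouping seen for TBX5. IRX3, a homeodomain factor of the conduction system, read 10.2 FPKM in YL2 and 23.0 to 38.1 elsewhere.

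Genes that these factors are known to drive were described in the same way. Of 25 heart muscle genes tested, limma called 0 in any comparison, and their medians were 0.05, 0.55, -0.19 and 0.43 in the same order of comparisons. Without overlap, 7 of 25 were higher and 9 lower in TH vs. YH (25.2 and 27.3% of all genes), 7 higher and 1 lower in TL vs. YL (23.8 and 17.8%), 4 higher and 10 lower in TH vs. TL (24.0 and 24.5%), and 5 higher and 1 lower in YH vs. YL (21.9 and 14.4%). An unadjusted p under 0.05 was reached by 5 higher and 2 lower in TH vs. YH, 3 higher in TL vs. YL, 3 higher and 3 lower in TH vs. TL and 1 higher in YH vs. YL. Large single values in TH vs. YH, chosen after they were seen, were the natriuretic peptide genes NPPA at 5.53 (adjusted p = 0.0448 in limma) and NPPB at 6.18 (adjusted p = 0.122), and the myosin gene MYH6 at -3.16 (adjusted p = 0.307). The 4 most abundant, TNNI3, TNNC1, MYL3 and TNNT2, which encode troponin subunits and a myosin light chain, had log2 fold changes of -0.45 to 0.75 over the 4 comparisons, with an SE of 0.52 to 0.63. Of 11 cytoskeletal SRF targets limma called 0, and an unadjusted p under 0.05 was reached by 4 in TH vs. YH, 4 in TL vs. YL and 3 in YH vs. YL, all of them higher, and by 1 higher and 1 lower in TH vs. TL, against 16.2, 8.94, 5.97 and 11.3% of all genes. The 5 smooth muscle markers, some of which are also in this list, had medians of 0.79 in TH vs. YH (4 higher and 1 lower without overlap), 0.89 in TL vs. YL, 0.38 in TH vs. TL and 0.71 in YH vs. YL, with 0 called by limma. Their part in the values of the list was not tested. ACTA1, skeletal actin, stood at 30005 and 21387 FPKM in TH and at 5833 to 15576 in the other groups. TPM1, TPM2 and MYL9, which encode tropomyosins and a smooth muscle myosin light chain, had log2 fold changes of -0.35 to 0.79.

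Immediate early SRF targets (10 tested genes, SRF itself among them) were mostly higher in Tibetan than in Yorkshire pigs. In TH vs. YH 9 were higher in both TH libraries (25.2% of all genes) and 8 had an unadjusted p under 0.05 (16.2%), with a median log2 fold change of 2.19. In TL vs. YL 8 were higher (23.8%) and 7 had such a p (8.94%), with a median of 1.38. Limma called 0 of them in each. SRF alone had a log2 fold change of 0.25 ± 0.21 (SE) in TH vs. YH and 1.15 ± 0.21 in TL vs. YL. In TL vs. YL the confidence interval of SRF, 0.66 to 1.65, covered the median of the list. The difference between the list and SRF was not tested. CTGF and CYR61, matricellular proteins, stood at 192 and 176 FPKM and at 178 and 170 FPKM in TH, and at 28.1 to 42.2 and 23.0 to 43.9 in the Yorkshire libraries. NR4A1, a nuclear receptor, read 266 and 106 FPKM in TL, 47.3 and 102 in TH and 10.3 to 13.6 in Yorkshire pigs. MCL1, a survival factor, had lower values in TH than in YH, with 16.6 and 41.0 FPKM (TH) against 43.8 and 49.0 (YH). The order of TH and TL differed among the 4: CTGF and CYR61 had lower values in TL than in TH (adjusted p = 0.49 and 0.255 in limma), whereas NR4A1, like SRF, had higher ones in TL (log2 fold change of TH vs. TL -1.26, adjusted p = 0.422).

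Genes with the most similar profile were found by Pearson's r of log2(FPKM + 1) over the 8 libraries and again over the 7 without YL2, as a description only: each is the best of 11913 genes over few points that share depth and composition. SRF was followed most closely by CAPN1 (calpain 1), MTUS2 and PPP1R3C, with r of 0.986, 0.985 and 0.973, and 0.984, 0.979 and 0.961 over 7. TBX5 was followed by PPP1R3A, a glycogen phosphatase subunit (0.980, and 0.979 over 7), PDE4D (0.974) and KIF26B (0.973). GATA6 was followed by EEF1G (0.997, and 0.992 over 7), RHOQ (0.989) and ARL6IP5 (0.988). HAND2 was followed by ENSSSCG00000013601 (0.989, and 0.979 over 7), CH242-236H6.1 (0.966) and FAM176C (0.964). GATA4 was nearest to PLCB4 (0.986), MITF (0.981) and KCNJ2, a potassium channel gene (0.981), and MEF2D to AKT2 (0.986) and INPP4B (0.977). MEF2C was nearest to 2 genes of endothelial cells, CAV1 (0.980) and ENG (0.976), and to MMP2 (0.967), with 0.919, 0.898 and 0.852 without YL2. HAND1 was nearest to LGALSL (0.957), MLLT3 (0.957) and ADAM15 (0.953), at 0.828, 0.810 and 0.820 without YL2. TBX20 was nearest to C2ORF49 (0.975), CYSLTR2 (0.973) and ENSSSCG00000026671 (0.963), and MEF2A to ENSSSCG00000028034 (0.962), ZNF713 (0.962) and SCRN3 (0.939). The gene nearest over 8 libraries was also among the 3 nearest over 7 for GATA6, TBX5, HAND2 and SRF.

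Among themselves the factors formed 45 pairs. MEF2A and SRF, both highest in TL, had r = 0.85 over 8 libraries and 0.80 over 7. GATA6 and HAND2 had 0.88 and 0.71. GATA6 and TBX20 had 0.25 over 8 libraries and -0.90 over 7, and GATA6 and MEF2C had 0.59 and -0.89, so the sign for these pairs turned on YL2.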

How the data were processed

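RNA of hearts from 4 groups of pigs was sequenced in 8 libraries, and groups were taken from the sample titles. The authors aligned reads to Sscrofa10.2 with TopHat2 2.0.9 and Bowtie 0.12.5 and used DESeq 1.10.1 for their own tests (versions from the submitters' processing notes). The deposited table gives FPKM per gene from the authors, made with Cufflinks. It also gives read counts scaled by the authors with a single factor for each library, used here as a signal in an alternative fit. The 8 columns of the authors' group means and ratios were not used. Between 99.7 and 99.9% of low scaled values came out as whole reads, from which depth was estimated. The FPKM of a gene depends on the other transcripts in its library. The summed FPKM of the cardiomyocyte markers differed between libraries (9227 to 27530), and the share of muscle transcripts was not measured.

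Genes that reached 1 FPKM in 2 or more libraries were fitted as log2(FPKM + 1) with limma 3.58.1 (R 4.3.3, a trend on the mean) with a mean per group, and p-values were Benjamini-Hochberg adjusted over 11913 genes. Fold changes are on the log2(FPKM + 1) scale and understate those of low genes. The residual spread had 4 degrees of freedom plus 2.83 from the prior. The script was tested on simulated data. Alternatives were the pseudocount, the filter, scaling, trend, replicate block, libraries in the fit and left-out libraries. Symbols came from the table for 14256 genes, from a name table for 1025, and 3694 had none.

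The factors, gene lists and marker lists were chosen with earlier results of these data known. Named genes are the 10 factors, the 4 most abundant tested genes of each list, and the 3 genes nearest each factor by correlation, of which 1 is not reported here. The grouping of TH1 with YL1, the genes UMOD, ACTC1, NPPA, NPPB and MYH6 and the pairs of factors were picked with their values in view. For YL1 and YL2 the labels name a group file of TL, and both were taken as YL from their titles and sources. No sequence of the factors was printed.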

Additional observations from a re-analysis of the deposited data

Results flagged for a closer look

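For 5 factors, 2 comparisons that ask the same question went in opposite directions with no overlap between groups. By altitude, TBX5, MEF2C, MEF2D and SRF were lower in TH than in TL and higher in YH than in YL, a pattern found in either direction in 11.3% of all tested genes. By breed, GATA4 and TBX5 were lower in TH than in YH and higher in TL than in YL (9.90% of all tested genes). The difference between the 2 fold changes was -1.16 for GATA4, -1.60 for TBX5, -1.20 for MEF2C, -1.19 for MEF2D and -0.90 for SRF on the log2 scale. None passed limma's test of that difference, with adjusted p of 0.536, 0.337, 0.4, 0.52 and 0.371. Without YL2 the differences were -0.59, -1.16, -0.80, -0.48 and -0.72, so the direction was the same in each and GATA4 and MEF2D moved most. However, 1 of the 2 comparisons then stood near 0 for GATA4 (0.06 in TL vs. YL), SRF (0.06 in YH vs. YL) and MEF2D (0.14 in YH vs. YL). Some groups were barely apart. GATA4 had 23.9 FPKM in TL1 and 23.8 in YL1, SRF 24.0 in YH2 and 23.6 in YL1, and MEF2C 14.7 in both TH2 and TL1. Without TH1, GATA4 stood at -0.07 in TH vs. YH and -0.70 for the difference, and MEF2C at -0.03 in TH vs. TL.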

How the results depend on the processing

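In the alternative fit of genes with a mean of at least 10 FPKM, TBX20 was not tested. The fits of only the 4 libraries compared did not include the difference between the altitude comparisons. Limma called 0 of the factors tested in each comparison under every alternative fit. At an adjusted p under 0.05 with no fold threshold the count was 0 in all of them except without YL1, where it was 4 in TL vs. YL, 4 in YH vs. YL and 3 for the difference between the altitude comparisons. At an unadjusted p under 0.05 the count was 5 in TL vs. YL, 2 in TH vs. TL, 4 in YH vs. YL, 4 for the difference between the altitude comparisons and 0 in TH vs. YH, and it was 0 in all of these with the cardiomyocyte centring. Of 50 fold changes, 36 kept their sign with every library left out in turn. Those that turned, with the range over left-out libraries, were GATA6 (-0.25 to 0.45), MEF2C (-0.36 to 0.06) and HAND1 (-0.05 to 0.05) in TH vs. YH, GATA6 (-0.46 to 1.32), MEF2D (-0.01 to 1.42) and HAND2 (-0.70 to 1.03) in TL vs. YL, GATA4 (-0.80 to 0.13), GATA6 (-0.24 to 0.45) and TBX20 (-1.24 to 0.28) in TH vs. TL, GATA6 (-0.45 to 1.33), MEF2A (-0.35 to 0.11) and HAND2 (-0.79 to 0.94) in YH vs. YL, and GATA6 (-1.22 to 0.56) and HAND2 (-0.48 to 1.25) in the difference. A group left with 1 library was taken to vary like the others.

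Dividing each library by its FPKM sum moved the median of all genes to -0.50 in TH vs. YH, -0.23 in TL vs. YL and -0.27 in TH vs. TL. It turned GATA6 (-0.84), HAND2 (-0.42), MEF2A (-0.40) and SRF (-0.62) in TH vs. YH, GATA6 (-0.49), HAND1 (-0.14) and HAND2 (-0.16) in TH vs. TL, HAND2 (-0.16) in TL vs. YL and HAND2 (-0.26) in the difference. Median-ratio scaling turned GATA6 in TH vs. YH (-0.03). The next 2 alternatives were chosen after seeing the data. Centring on the cardiomyocyte markers moved the median of all genes to -0.36 in TH vs. YH and -0.61 in TL vs. YL and turned GATA6 (-0.23) and SRF (-0.07) in TH vs. YH, GATA6 (-0.19), HAND1 (-0.25) and HAND2 (-0.46) in TL vs. YL, HAND2 (-0.10) in YH vs. YL and MEF2A (0.02) in the difference. The scaled reads turned MEF2A (0.11) in the difference. The cause of these turns was not tested. With a replicate block limma called 0 factors in each comparison. No pairing by replicate number was seen in correlations of same-numbered deviations, which ran from -0.08 to 0.12. With 2 libraries a group, such correlations cannot exclude a pairing.

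The planned count-model fits were not run, because a few scaled values were not whole reads. With 2 pools a group, differences of the size of 1 standard error (0.21 to 0.56 for a factor in a single comparison) could not be told from the spread between pools. Some of several standard errors did not pass after adjustment either. TBX20 in YH vs. YL (1.71 ± 0.53) had an adjusted p of 0.763 in limma, and SRF in TL vs. YL (1.15 ± 0.21) had 0.187. The depth of YL2 was within the range of the others.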
